A study of Homo sapiens with 4 samples.

Results

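Transcript levels of the 7 genes that encode the CDK inhibitors were examined in RD and JR1 cells with and without SKP2 knockdown. The members were taken by gene symbol. They were CDKN1A, CDKN1B and CDKN1C of the CIP/KIP family and CDKN2A, CDKN2B, CDKN2C and CDKN2D of the INK4 family, 7 of the 39323 genes listed. RD and JR1 are established human cell lines of fusion-negative rhabdomyosarcoma (FN-RMS), a childhood tumor with features of arrested skeletal muscle precursors. Each line had been transduced with a lentivirus carrying a non-targeting shRNA (shSCR) or an shRNA against SKP2 (shSKP2, named shSKP2.2 in the study's design), so the controls carried a viral vector too. Poly-A RNA was sequenced in 4 libraries, 1 for each line and condition, and the authors deposited TPM, a transcript abundance scaled for transcript length and for the total of the library. A single hairpin in a bulk culture of each line represents the knockdown, and no library of untransduced cells was analysed here.

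The INK4 proteins (p16INK4A, p15INK4B, p18INK4C and p19INK4D) bind CDK4 and CDK6 and keep them from pairing with D-type cyclins, so that the retinoblastoma protein stays unphosphorylated and E2F genes stay off. The CIP/KIP proteins (p21, p27 and p57) bind cyclin-CDK complexes more broadly and block CDK2 with cyclin E or cyclin A. SKP2 is the substrate receptor of an SCF ubiquitin ligase that marks p27, and also p21 and p57, for degradation, a control of protein and not of transcript. In the muscle lineage, p21 and p57 accompany the exit from the cell cycle that precedes fusion of myoblasts, and MYOD1 is known to induce p21.

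The promoters of CDKN1A, the highest member in every library, of CDKN2C, the only member that fell (in RD), and of CDKN2D, the INK4 gene with a value above 0 in both lines, are shown because these are the members on which the results turn. The letters are the 250 bases before the transcription start in RefSeq (GRCh38.p14), written 5′ to 3′ on the strand of the gene. Capitals mark 3 words searched on both strands, the E-box CANNTG that basic helix-loop-helix factors such as MYOD1 can bind (CAGCTG is one form of it), the GC box GGGCGG read by Sp1-like factors, and TTTNNCGC, a word of E2F sites. Neighbouring sites run together in capitals.
CDKN1A, chr6:36678464-36678713, plus strand: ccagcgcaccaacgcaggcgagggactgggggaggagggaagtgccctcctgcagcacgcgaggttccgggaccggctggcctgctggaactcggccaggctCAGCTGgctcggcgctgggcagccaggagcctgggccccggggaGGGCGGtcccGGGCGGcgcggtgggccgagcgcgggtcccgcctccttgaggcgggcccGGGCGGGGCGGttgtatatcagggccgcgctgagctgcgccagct
CDKN2C, chr1:50968456-50968705, plus strand: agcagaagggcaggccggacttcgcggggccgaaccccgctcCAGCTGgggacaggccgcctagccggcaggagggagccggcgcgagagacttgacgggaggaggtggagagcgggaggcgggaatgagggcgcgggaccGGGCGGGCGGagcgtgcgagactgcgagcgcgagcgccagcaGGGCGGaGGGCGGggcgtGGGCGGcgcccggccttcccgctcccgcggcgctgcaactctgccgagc
CDKN2D, chr19:10568980-10569229, minus strand: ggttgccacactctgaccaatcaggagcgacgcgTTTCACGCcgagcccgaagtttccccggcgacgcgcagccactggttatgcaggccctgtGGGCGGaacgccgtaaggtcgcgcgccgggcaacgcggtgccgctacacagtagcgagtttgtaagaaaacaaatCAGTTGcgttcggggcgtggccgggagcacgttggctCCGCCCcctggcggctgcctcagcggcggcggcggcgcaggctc
The CDKN1A window, whose start site lies inside the span that the files give the gene, had a GC content of 76.4%, 1 CAGCTG E-box 148 bases before the start and 4 GC boxes. The CDKN2C window, which belongs to the first base of the gene as the files place it, had a GC content of 77.2%, 1 CAGCTG E-box 208 bases before the start and 5 GC boxes. In the CDKN2D window, with a GC content of 67.6%, there were 1 E-box of another form, 2 GC boxes and 1 E2F word 216 bases before the start. CDKN2C has 2 further RefSeq starts, whose windows had a GC content of 45.6% and 48.8%, no CAGCTG, 1 and 2 E-boxes of other forms, and 0 and 1 GC boxes. RefSeq gave 9 promoters for 6 of the members, and CDKN1C had none in the table. Among the 35116 promoters of this length, 61.8% held an E-box, 14.0% held CAGCTG, 42.6% held a GC box and 5.92% held TTTNNCGC, and their median GC content was 58%. A match describes letters in this window and is not evidence that a factor binds there.

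The targeted gene, SKP2, was at 92.8 TPM in RD shSCR, 7.40 in RD shSKP2, 46.5 in JR1 shSCR and 2.72 in JR1 shSKP2, a fall of the knockdown libraries that matched the labels (log2 change -3.48 in RD and -3.67 in JR1). MYOD1, the master regulator of the muscle lineage, was between 87.0 and 131 TPM, and 8 of 10 fixed rhabdomyosarcoma markers passed the filter. MYF5 was listed at 0 in all libraries, and MYF6 was at 0.06 to 0.50 TPM. With knockdown, the markers FGFR4 (log2 change -1.89 in RD and -1.39 in JR1) and PAX7 (-1.43 in both) were more than 2-fold lower. In TPM as deposited 0 were 2-fold higher. Most of the 8 tested markers were nevertheless above 0, 6 in RD (2 below) and 5 in JR1 (3 below), with medians of 0.23 and 0.38. With short structural RNA genes removed, MYOG (1.30 in RD and 1.25 in JR1) passed 2-fold in both lines and CHRNA1 in RD (1.10). Of 12 markers of epithelial, blood, endothelial and liver cells, only CD68 passed (2.28 to 2.87 TPM), and the other 11 were at 0.38 TPM or below. Changes are log2 of the ratio of TPM + 1, which understates changes of low genes, and a gene was counted as risen or fallen when it moved at least 2-fold on this scale. The filter kept the 12983 genes whose TPM averaged 1 or more over the 4 libraries, called the tested genes here, and the 7 members were among them. With 1 library per group there is no replicate spread, so no difference has a p-value, and TPM keep no depth. Short structural RNA genes took 58.6% of the TPM in RD shSCR, 69.1% in RD shSKP2, 66.5% in JR1 shSCR and 72.1% in JR1 shSKP2. Over all tested genes the median change came to -0.27 (RD) and -0.21 (JR1), or to 0.12 and 0.01 with the structural genes removed, and members are given relative to these shifts where a call depends on them. In bulk RNA, a change in the RNA per cell and a change in the share of cells that express a gene cannot be told apart.

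With SKP2 knockdown in RD, 1 of 7 members rose (CDKN1A), against 1.08% of all tested genes, and 1 of 7 fell (CDKN2C), against 7.37%. In JR1, 0 of 7 rose, against 1.78% of tested genes, and 0 of 7 fell, against 9.05%. Hence 0 members passed 2-fold in the same direction in both lines, where 0.539% of tested genes rose in both and 4.79% fell in both. Among the members the median stood at -0.24 (RD) and -0.21 (JR1), close to the medians over all tested genes. CDKN1A and CDKN2D were above 0 in both lines, CDKN1B, CDKN2A, CDKN2B and CDKN2C were below 0 in both, and CDKN1C differed in sign between the lines.

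**Figure D1:**
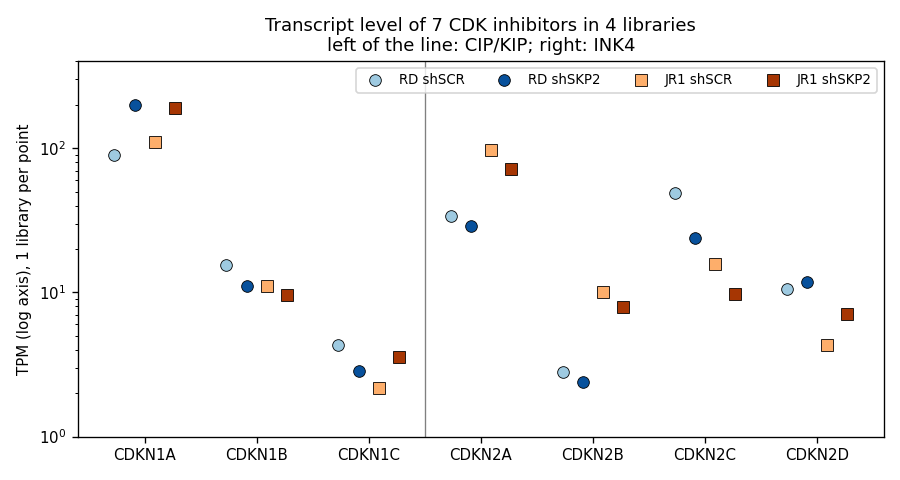
TPM (log axis) of the 7 CDK inhibitor genes, with 1 point per library, circles for RD and squares for JR1, light for shSCR and dark for shSKP2. CDKN1A is highest in each library, at 90.3 to 201 TPM, whereas the INK4 genes CDKN2A, CDKN2B, CDKN2C and CDKN2D separate by line.

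CDKN1A encodes p21, an inhibitor induced by many signals that arrest the cell cycle. It lies at chr6:36676463-36687332 (GRCh38) and has 3 exons in its canonical transcript. Its level was 90.3 TPM in RD shSCR, 201 in RD shSKP2, 111 in JR1 shSCR and 191 in JR1 shSKP2. Both knockdown libraries were thus above both control libraries, and the values with shSKP2 differed less between the lines (RD over JR1 ratio of 1.05) than those with shSCR (0.814). The TPM ratio of shSKP2 over shSCR was 2.23 in RD and 1.72 in JR1, log2 changes of 1.15 and 0.78, which stood at percentiles 99.2 and 96.9 of the changes of all tested genes. Relative to the median of tested genes, the change was 1.42 in RD and 0.99 in JR1. With structural RNA genes removed it was 1.57 and 1.05, so that the call in JR1 depended on the scaling. The noncoding gene DINOL overlaps 951 bases of the CDKN1A locus and was at 0.09, 0.31, 0.19 and 0.46 TPM in the same order of libraries, far below CDKN1A.

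CDKN1B, the gene of p27 and the classic substrate of SKP2, lies at chr12:12717368-12722369. It was at 15.6 TPM in RD shSCR, 11.1 in RD shSKP2, 11.2 in JR1 shSCR and 9.53 in JR1 shSKP2. The values were lower with shSKP2 in both lines, by log2 changes of -0.46 in RD and -0.21 in JR1, within 2-fold. These changes were at percentiles 32.0 and 50.7 of all tested genes, and relative to the median of tested genes they were -0.19 and 0.01. Hence the CDKN1B transcript stayed near the middle of the distribution in JR1 and its sign there turned with the scaling (0.04 with structural genes removed).

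CDKN1C encodes p57, an imprinted member of the family, and lies at chr11:2883218-2885775 on the minus strand. It was among the lowest members, at 4.32 TPM in RD shSCR, 2.86 in RD shSKP2, 2.17 in JR1 shSCR and 3.57 in JR1 shSKP2. The lines went in opposite directions, with a TPM ratio of 0.662 in RD and 1.65 in JR1. The log2 changes of -0.46 and 0.53 differed by -0.99 (RD minus JR1), at percentile 1.21 of that difference over all tested genes. A difference of at least 1 was found for 0 of 7 members and for 2.76% of tested genes, and CDKN1C passed it with structural RNA genes removed (-1.04). Opposite signs in the lines were seen for 21.3% of tested genes, and at these levels 1 library per group cannot separate the direction from the noise between libraries. The neighbour SLC22A18, another imprinted gene of the same region, fell in both lines (log2 change -1.30 in RD and -1.31 in JR1). The other tested neighbours there were within 2-fold, PHLDA2 at -0.24 in RD and -0.08 in JR1 and NAP1L4 at -0.21 in both.

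CDKN2A, the gene of p16INK4A and of ARF, lies at chr9:21967752-21995324. Both products come from transcripts with separate starts that share exons, and the single gene value pools them. CDKN2A was at 34.1 TPM in RD shSCR, 28.8 in RD shSKP2, 96.8 in JR1 shSCR and 71.9 in JR1 shSKP2. It was lower with shSKP2 in both lines by log2 changes of -0.24 and -0.42, within 2-fold, and relative to the median of tested genes the changes were 0.03 and -0.21. CDKN2B, the gene of p15INK4B next to it at chr9:22002903-22009313, was at 2.79, 2.38, 10.1 and 7.97 TPM in the same order. Its changes were -0.17 in RD and -0.31 in JR1, and like those of CDKN2A they turned positive in RD with rescaling (0.17 for CDKN2B and 0.18 for CDKN2A with structural genes removed). The ratio of CDKN2A to CDKN2B was nearly the same with and without knockdown, 12.2 and 12.1 in RD and 9.56 and 9.03 in JR1. The antisense RNA CDKN2B-AS1, which spans CDKN2B and is known to recruit polycomb repressors, was at most at 0.40 TPM. The nearby MTAP, often lost together with CDKN2A in tumors, was at 3.96 and 3.86 TPM in RD and 3.19 and 3.15 in JR1, so reads from this region were present in each library.

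CDKN2C encodes p18INK4C, an inhibitor whose gene is an E2F target, and lies at chr1:50968706-50974634. It was at 49.1 TPM in RD shSCR, 23.7 in RD shSKP2, 15.9 in JR1 shSCR and 9.79 in JR1 shSKP2. CDKN2C had the lowest change among the members in both lines, with a TPM ratio of 0.483 in RD and 0.617 in JR1. The log2 changes of -1.02 and -0.64 were at percentiles 6.98 and 20.6 of all tested genes. The call in RD was lost relative to the median of tested genes (-0.75) and with structural genes removed (-0.62). CDKN2D, the gene of p19INK4D at chr19:10566460-10568979, went the other way, at 10.6, 11.9, 4.34 and 7.11 TPM in the same order. Its log2 changes were 0.16 in RD and 0.60 in JR1, at percentiles 85.6 and 94.9, and within 2-fold under each scaling (0.58 and 0.92 with structural genes removed). The ratio of CDKN2C to CDKN2D, which does not depend on scaling, went from 4.65 to 1.99 in RD and from 3.65 to 1.38 in JR1.

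**Figure D2:**
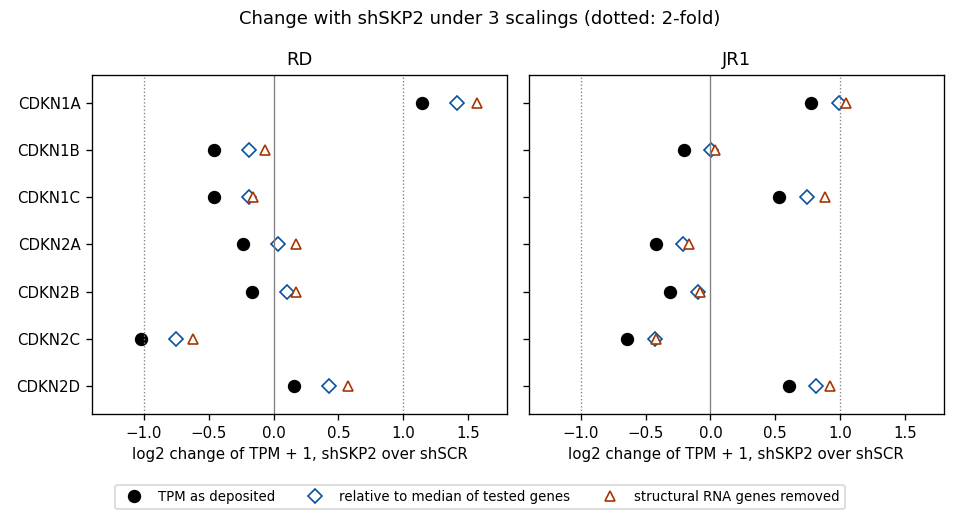
Log2 change of TPM + 1, shSKP2 over shSCR, in RD and JR1 for each member as deposited (circles), relative to the median of tested genes (diamonds) and with structural RNA genes removed (triangles); dotted lines mark 2-fold. CDKN1A lies farthest right in both lines (1.15 and 0.78 as deposited) and CDKN2C farthest left (-1.02 and -0.64).

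Shares within a library are free of the scaling between libraries. CDKN1A made up 81.9% of the CIP/KIP transcripts in RD shSCR and 93.5% in RD shSKP2, and 89.3% and 93.6% in JR1. The share of CDKN1B went from 14.1% to 5.15% in RD and from 8.98% to 4.67% in JR1. CDKN1C held 3.92% and 1.33% of the family in RD and 1.75% in both JR1 libraries. Within the INK4 family the lines differed in their leading gene. CDKN2C was the largest in RD shSCR with 50.8%, ahead of CDKN2A with 35.3%, and in RD shSKP2 this order turned, with 35.5% for CDKN2C and 43.1% for CDKN2A. In JR1, CDKN2A led in both libraries with 76.1% and 74.3%, and CDKN2C held 12.5% and 10.1%.

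Summed over the family, the CIP/KIP genes went in RD from 110 to 215 TPM and in JR1 from 124 to 204, and the INK4 genes in RD from 96.5 to 66.8 TPM and in JR1 from 127 to 96.8. The ratio of the CIP/KIP sum to the INK4 sum was therefore 1.14 in RD shSCR, 3.22 in RD shSKP2, 0.977 in JR1 shSCR and 2.11 in JR1 shSKP2. Unlike this ratio, each sum moves with the scaling of the library, and the sums were not rescaled. The lower INK4 sums stand beside median changes of -0.27 (RD) and -0.21 (JR1) over all tested genes. The controls had about equal amounts of both families, and the knockdown libraries had more CIP/KIP transcript, nearly all of it CDKN1A. CDKN1A alone held 43.7% of the TPM of the 7 genes in RD shSCR and 71.4% in RD shSKP2, and 44.1% and 63.5% in JR1.

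**Figure D3:**
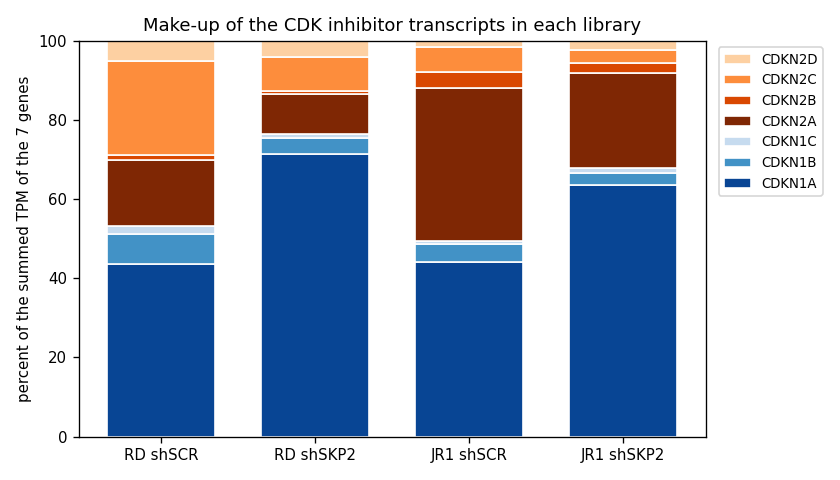
Percent of the summed TPM of the 7 genes held by each gene in each library, CIP/KIP in blue and INK4 in orange. CDKN1A takes 43.7% and 44.1% in the shSCR libraries and 71.4% and 63.5% in the shSKP2 libraries, and CDKN2A and CDKN2C exchange rank between RD shSCR and JR1 shSCR.

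In control cells, RD and JR1 differed at 4 of the 7 genes, all of the INK4 family. CDKN2C and CDKN2D were more than 2-fold higher in RD (2 of 7 members, against 6.50% of tested genes), with log2 differences of 1.57 and 1.11. CDKN2A and CDKN2B were more than 2-fold lower in RD (2 of 7, against 3.44%), with differences of -1.48 and -1.55. The CIP/KIP genes were within 2-fold between the lines on this scale, at -0.29 for CDKN1A, 0.45 for CDKN1B and 0.75 for CDKN1C. After knockdown, CDKN2C was still higher in RD (1 of 7, against 5.39% of tested genes), with a difference of 1.19, and CDKN2A and CDKN2B were lower (2 of 7, against 2.70%), with -1.29 and -1.41. CDKN2D was at 0.67 there. The call for CDKN2D in control cells was lost with structural RNA genes removed (0.92), and that for CDKN2C after knockdown with median-ratio scaling (0.97), while the directions of CDKN2A, CDKN2B and CDKN2C held under each scaling tried. The libraries of the lines are separate cultures of unrelated tumors, and an effect of line and one of culture cannot be told apart.

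**Figure D4:**
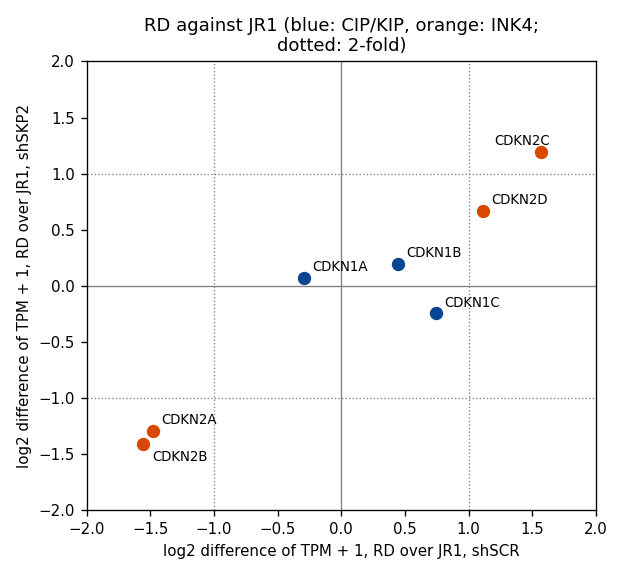
Log2 difference of TPM + 1, RD over JR1, in shSCR (horizontal) and shSKP2 (vertical), for the CIP/KIP genes in blue and the INK4 genes in orange; dotted lines mark 2-fold. CDKN2A and CDKN2B lie together at the lower left (-1.48 and -1.55 in shSCR), CDKN2C lies at the upper right (1.57 in shSCR and 1.19 in shSKP2), and the CIP/KIP genes lie between the 2-fold lines.

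By level, the order of the members in RD shSCR was CDKN1A, CDKN2C, CDKN2A, CDKN1B, CDKN2D, CDKN1C and CDKN2B. In JR1 shSCR it was CDKN1A, CDKN2A, CDKN2C, CDKN1B, CDKN2B, CDKN2D and CDKN1C. With 1 library per group, no pair of neighbours in these orders can be judged against a spread, and the closest were CDKN1B and CDKN2B in JR1 shSCR at 11.2 and 10.1 TPM. The canonical transcripts of the members ranged in length from 978 bases (CDKN2A) to 3853 bases (CDKN2B), for which TPM corrects.

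The partners that the inhibitors bind were set beside them. Of 12 cyclins and CDKs, 11 were tested, with 0 that rose in either line, 3 that fell in RD and 4 that fell in JR1. The list had medians of -0.46 (RD) and -0.64 (JR1). Over all tested genes 7.37% fell in RD and 9.05% in JR1, 1.08% and 1.78% rose, and the medians were -0.27 and -0.21. CDK2, the main CDK target of p21 and p27, fell in RD from 39.1 to 13.0 TPM and in JR1 from 20.7 to 5.86. CCND1, the D-type cyclin that activates CDK4 and CDK6, fell in RD from 55.2 to 16.6 TPM and in JR1 from 107 to 29.4. CDK1, the mitotic kinase, fell as well (log2 change -1.18 and -1.46), and CCND2 fell in JR1 (-1.03). With structural genes removed both calls were lost, for CDK1 in RD (-0.81) and for CCND2 in JR1 (-0.77), while CDK2 and CCND1 kept theirs in both lines. The INK4 targets did not pass 2-fold, with CDK4 at 134, 103, 122 and 116 TPM and CDK6 at 38.5, 50.3, 64.0 and 90.1 TPM in RD shSCR, RD shSKP2, JR1 shSCR and JR1 shSKP2.

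Ratios of the CIP/KIP genes to CDK2 moved more than the inhibitors themselves. CDKN1A over CDK2 was 2.31 in RD shSCR, 15.5 in RD shSKP2, 5.35 in JR1 shSCR and 32.6 in JR1 shSKP2, a fold of 6.70 in RD and 6.10 in JR1. CDKN1B over CDK2 was 0.398, 0.851, 0.538 and 1.63 in the same order, although CDKN1B itself was lower with knockdown in TPM as deposited. With structural genes removed the CDKN1B change was -0.07 in RD and 0.04 in JR1. The INK4 sum over CDK4 plus CDK6 went down, from 0.560 to 0.436 in RD and from 0.685 to 0.469 in JR1. CDKN1B over SKP2, the substrate over its ligase receptor, was 0.168 and 1.49 in RD and 0.240 and 3.50 in JR1, a ratio set by the knockdown itself. These ratios are of transcripts, and the proteins were not measured in these files.

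Of the ubiquitin ligase subunits that act on CIP/KIP proteins, 18 of 20 symbols were matched and tested. In RD 1 fell, against 7.37% of tested genes, in JR1 3 fell, against 9.05%, and 0 rose in either line. Both counts of falls include SKP2, the target of the hairpin, whose fall was set by the knockdown itself. SKP2 fell in both lines and was the only one in RD, while CKS1B, the SKP2 cofactor needed for p27, and CDC20, an activator of the anaphase-promoting complex, fell in JR1 (-1.33 and -1.23) and had changes of -0.91 and -0.70 in RD. The call for CDC20 was lost with median-ratio scaling or with structural genes removed (-0.997 for the latter). The list had medians of -0.52 (RD) and -0.40 (JR1). CDC34, the ubiquitin-conjugating enzyme of SCF ligases, was the highest of the list in both lines (0.14 and 0.38).

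Among 29 tested transcriptional regulators of the inhibitor genes, 0 rose and 3 fell in RD, against 1.08% and 7.37% of tested genes. In JR1 1 rose and 5 fell, against 1.78% and 9.05%. The medians of -0.34 and -0.33 stood beside -0.27 and -0.21 over all tested genes. KLF4, an activator of CDKN1A in other cells, fell in RD from 75.3 to 10.3 TPM and in JR1 from 47.7 to 7.41. HES1, a Notch target that can repress CDKN1B and CDKN1C, fell in RD from 8.30 to 1.21 TPM and in JR1 from 17.4 to 3.14. PAX7, a factor of muscle stem cells, fell by the same measure (-1.43 in both lines). ETS1 and ID1, which act for and against CDKN2A transcription, fell in JR1 (-1.04 and -1.60) and were at -0.98 and -0.89 in RD, and the call for ETS1 was lost with structural genes removed (-0.84). FOXO1, an activator of CDKN1B, rose in JR1 (1.17, from 0.58 to 2.56 TPM) and was at 0.44 in RD. MYOD1 was at 0.11 in RD and 0.38 in JR1 and MYOG at 0.87 and 0.98, within 2-fold. MYOG passed it with structural genes removed (1.30 in RD and 1.25 in JR1), while KLF4, HES1 and PAX7 kept their calls.

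A mixed list held polycomb repressors, a demethylase that opposes them and antisense RNAs of the inhibitor loci, of which only KCNQ1OT1 was tested. Of its 12 tested genes, 1 rose and 1 fell in RD, against 1.08% and 7.37% of all tested genes. In JR1 0 passed 2-fold, and the medians were -0.18 in RD and -0.08 in JR1. KDM6B, a demethylase that removes the polycomb mark H3K27me3, went from 13.2 to 28.4 TPM in RD, where it rose, and from 14.9 to 30.4 in JR1 (log2 change 1.05 and 0.98), and in JR1 it passed 2-fold with structural genes removed (1.27). BMI1, a repressor of the CDKN2A locus, fell in RD from 8.99 to 3.18 TPM (-1.26, or -0.99 relative to the median of tested genes) and went from 3.95 to 2.75 in JR1. CDKN2A, which both genes are known to act on, was within 2-fold in both lines, as given above, and an effect of either gene on it was not tested.

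Downstream of the inhibitors, 6 of 21 pocket proteins and E2F-driven genes fell in RD, against 7.37% of tested genes. In JR1 5 of 21 fell, against 9.05%, and 0 rose in either line. The medians were -0.84 and -0.63, beside -0.27 and -0.21 over all tested genes. The count that fell in RD was 4 relative to the median of tested genes and 2 with structural genes removed, and in JR1 it was 4 and 5. MCM5, a subunit of the replicative helicase, fell in RD from 39.0 to 15.1 TPM and in JR1 from 15.1 to 5.55. TYMS, the thymidylate synthase, fell in RD from 111 to 41.5 TPM and in JR1 from 32.1 to 12.6. RBL2, the pocket protein p130 and not itself a gene of DNA synthesis, fell too (-1.43 and -1.17). TK1, a kinase of nucleotide salvage, fell in both lines (-1.13 and -1.38). With structural genes removed, MCM5 (-0.94), TYMS (-0.99) and TK1 (-0.72) did not pass 2-fold in RD and passed it in JR1, and RBL2 passed it in both lines but missed it in JR1 relative to the median (-0.95). CCNE1 was the highest member in RD (0.32) and RBL1 in JR1 (0.17), both within 2-fold.

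Of 8 further genes named for CDKs or their inhibitors, 1 fell in RD, against 7.37% of tested genes, and 0 passed 2-fold in JR1. It was CDK2AP2 (-1.14), a call lost under the 3 other scalings, at -0.77 with structural genes removed. Of 7 tested neighbours of the inhibitor loci only SLC22A18 passed, falling in both lines, as 4.79% of tested genes did.

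**Figure D5:**
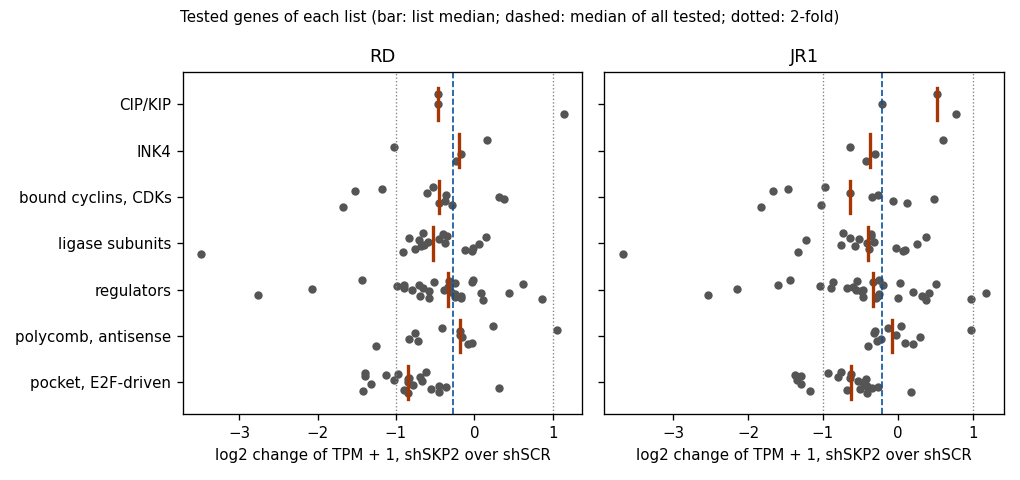
Log2 change of TPM + 1 (shSKP2 over shSCR) of the tested genes of each list in RD and JR1, with 1 point per gene, a bar at the list median, a dashed line at the median over every tested gene (-0.27 and -0.21) and dotted lines at 2-fold. Pocket proteins and E2F-driven genes have the lowest median of the lists in RD (-0.84), and the CIP/KIP list of 3 genes has medians of -0.46 in RD and 0.53 in JR1.

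The genes whose pattern over the 4 libraries was most like that of 3 members were found by the root mean square difference of log2 values centred on each gene's mean. For CDKN1A they were ENHO (0.039), FAM222A (0.070) and KDM6B (0.080), and 5 genes in all lay within 0.1. ENHO was low, at 0.46 to 2.17 TPM. For CDKN2C they were TMPO (0.047), which encodes a protein of the nuclear lamina, the transcription factor E2F1 (0.056) and the phosphatase subunit PPP2R5D (0.067), among 12 genes within 0.1. E2F1 was at 25.2, 13.1, 8.75 and 5.08 TPM in RD shSCR, RD shSKP2, JR1 shSCR and JR1 shSKP2. For CDKN1C they were GUSBP15 (0.047), ALDH6A1 (0.053) and DGKE (0.057), among 29 genes within 0.1, and these 3 were at 1.04 to 4.66 TPM. A likeness over 4 libraries that share lines and scaling is a description, and ranking by Pearson r kept 0 of these 3 genes for each member.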

How the data were processed

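Poly-A RNA of 1 culture per line and condition was read as pairs of 150 bases from directional libraries. STAR 2.7.9a (alignment to GRCh38) and RSEM 1.3.2 (quantification) were run by the authors, who deposited TPM values with 2 decimals per gene and library. Whether RSEM was run with strand is not given in the sources used here, so reads of a member and of an overlapping antisense gene may not be told apart. TPM keep no read counts, so depth and counting error are unknown. TPM were used as deposited.

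Changes were log2 ratios with a pseudocount of 1 TPM. Genes averaging 1 TPM or more were tested, and the limit was 2-fold. No p-value was computed. The pseudocount, the filter, the limit and the scaling (the median of tested genes, a median-ratio factor, or removal of 1074 structural RNA genes chosen by symbol, which leaves 15220 tested genes) were varied. The named genes are the members, SKP2, MYOD1, CDK2, CDK4 and CDK6, up to 4 genes of each list past 2-fold in both lines, the highest and lowest gene of each list, and the 3 genes nearest to CDKN1A, CDKN2C and CDKN1C in pattern. CCND2, CKS1B, CDC20, ETS1, ID1, CDKN2B-AS1 and DINOL were named after their values were seen. The members and lists were chosen with earlier results of these data known, and E2F1, CCNE1, CCNE2, PCNA, PAX7, MYOD1 and MYOG stand in more than 1 list. Some genes and 1 gene list of the original plan are not reported here. Promoters came from RefSeq (GRCh38.p14) and transcripts from GENCODE release 44. Scripts were tested on simulated data and run with Python 3.11.15, numpy 2.4.6, pandas 2.3.3 and matplotlib 3.10.9.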

Additional observations from a re-analysis of the deposited data

Results flagged for a closer look

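Of 44 named genes, 9 had changes of opposite sign in RD and JR1, and 21.3% of all tested genes did. The shares cannot be compared, because genes named for passing 2-fold the same way in both lines could not differ in sign. Genes named for a pattern like that of a member were not a free choice either. The difference between the lines was not tested because each line has 1 library per condition. CDKN1C was one of the 9, with a change in RD minus that in JR1 of -0.99 on the log2 scale. Among the genes of the lists, the difference was 0.66 for CCNE1, -0.62 for RBL1, -0.24 for CABLES1, -0.28 for CDKN2AIP and -0.73 for FAF1, a neighbour of CDKN2C. With structural RNA genes removed, the signs of CABLES1 (0.18 in RD and 0.28 in JR1) and CDKN2AIP (0.14 and 0.30) were the same in both lines and FAF1 was at about 0 in RD (-7.6e-05), so these signs rested on the scaling, whereas CDKN1C, CCNE1 and RBL1 kept opposite signs. The other three, GUSBP15 (-0.89), ALDH6A1 (-0.92) and DGKE (-1.07), were chosen for their likeness to CDKN1C and so had to share its signs.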

How the results depend on the processing

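Of 175 member values under an alternative, not counting the filters, which cannot change them, 145 kept their direction and side of the limit. Beyond these, 10 newly passed the limit, 7 no longer did and 13 reversed. The limit of 1.5-fold is counted here although it leaves each value as it is, so its values could not reverse. Passing at 1.5-fold were CDKN1A, CDKN2C and CDKN2D in JR1, CDKN1C between the lines in shSCR, CDKN2D between them in shSKP2, and the CDKN1C difference of changes. At 2-fold, only CDKN1A in JR1 and the CDKN1C difference of changes newly passed. The reversed values were small. For CDKN2A in RD the change became 0.033 relative to the median of tested genes, 0.18 with structural RNA genes removed and 0.017 with median-ratio scaling, and for CDKN2B in RD it became 0.10, 0.17 and 0.023. For CDKN1B in JR1 it became 0.0077, 0.037 and 0.016. The difference of RD over JR1 in shSKP2 became -0.10, -0.074 and -0.17 for CDKN1A, and -0.030 for CDKN1B with median-ratio scaling. Members that fell in RD numbered 0 under these 3 scalings. In JR1, 1 member rose with structural genes removed or with median-ratio scaling, and at a limit of 1.5-fold 2 were higher and 1 lower. Higher in RD shSCR than in JR1 shSCR was 1 member under the 3 scalings, and in shSKP2 it was 0 with median-ratio scaling and 2 at 1.5-fold. The difference of the changes passed the limit for 1 member with a pseudocount of 0.1 TPM, with structural genes removed and at 1.5-fold. Over the 6 pathway lists, 95 genes tested, 1 rose and 15 fell in RD, against 1.08% and 7.37% of all tested genes. In JR1 1 rose and 17 fell, against 1.78% and 9.05%. The falls in each line include SKP2, the target of the hairpin. With structural genes removed 3 rose in each line and 9 fell in RD. At 1.5-fold 3 rose and 45 fell in RD and 3 rose and 31 fell in JR1. Relative to the median or with median-ratio scaling 2 rose in RD and 3 in JR1. In JR1, 2 rose with a pseudocount of 0.1 TPM and 0 with a minimum mean of 5 TPM. With structural genes removed, the median of the regulators reversed in RD (0.043). The polycomb list became 0.088, 0.23 and 0.053 in RD and 0.14, 0.23 and 0.12 in JR1 (median, structural genes, median-ratio). Taking all 7 members in place of the INK4 sum over CDK4 plus CDK6 gave folds of 1.54 in RD and 1.08 in JR1. Pearson r kept 0 of the 3 genes nearest to CDKN1A, CDKN2C and CDKN1C. The cause of these shifts was not tested beyond the change of setting. Libraries were compared within each line, where no library could be left out. A fit over the 4 libraries with line as a block, which takes the lines as replicates of the knockdown and leaves 1 residual degree of freedom, was not run.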
